A study of Glycine max with 8 samples.

Results

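Fully grown green soybean seeds were compared with pods at the start of their elongation, the last and the first stage of a 4-stage series on seed development in the cultivar Tamahomare. The groups compared were 4 of the 8 arrays in the series, chosen by their titles: 2 of fully grown beans and 2 of elongating pods. The fully grown samples were seeds alone, by the labels, and the elongating pod samples were pods, so the groups differ in tissue as well as in age. The other 4 arrays, 2 of pods with beans of 2 mm and 2 of beans of 5 mm, were used to set values of the stages between beside the changes. They also entered the shared estimate of spread, on which every SE, p-value and call rests. Glycine max plants of both groups had no labelled treatment, and total RNA was measured as biotin-labelled cRNA on Affymetrix soybean arrays. The labels give no plant age and do not say whether replicates came from separate plants. The p-values therefore reflect how far the replicate arrays of all 4 stages spread, and that spread may be technical.

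A filling soybean seed is mostly embryo, whose cotyledons store globulins, small albumins, protease inhibitors and oil. Late in filling the embryo also makes hydrophilic proteins that accompany its tolerance of drying. A young pod is a green, photosynthetic organ that expands its walls, is open to insects and pathogens, and in soybean builds vegetative lipoxygenases and vegetative storage proteins as a temporary nitrogen store. The comparison thus sets a storing tissue against a growing one. In such bulk samples, fewer cells of a type and less RNA per cell cannot be told apart.

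Values are scaled signals: each array was multiplied to give an equal median over the 37641 soybean probe sets, the short oligonucleotide groups that measure a transcript. Before scaling, the medians were 23.2 and 18.9 in fully grown beans, against 59.4 and 59.1 in elongating pods. Changes are on the scale log2(scaled signal + 16), so they compare a transcript with the typical one of its array, and they understate the change of dim transcripts. Background is the 95th percentile of the Phytophthora sojae and Heterodera glycines probe sets on an array. Where neither array of a group exceeded it, the fold is a bound, written "at least" and computed against that percentile without the added 16. These bounds are those of the median scaling and were not computed under the others. Between the groups, 21042 of 33625 tested probe sets (62.6%) differed at an adjusted p under 0.05 (limma, two-sided, Benjamini-Hochberg). Of these, 12976 (38.6% of the tested) were higher and 8066 (24%) lower in fully grown beans, and 6060 (18%) were at least 2-fold higher and 4439 (13.2%) at least 2-fold lower. This split rests on the scaling: 61.7% of calls were higher here, 53.5% after quantile normalization, 9.33% with signals as deposited and 2.91% with arrays scaled to their hybridization controls, under which the median of all tested probe sets moved to -1.52. The calls that were higher under all 4 scalings numbered 893 (2.66% of the tested), and 8060 (24%) were lower under all 4. A gene said not to pass did not pass by the median scaling: of 24 such genes named here, 8 were called lower after quantile normalization, 21 with signals as deposited and 24 with the hybridization controls. Taking the brightest probe set of each gene, 4263 of 5814 genes (73.3%) were called. The hybridization controls stood at 987 and 1032 on the fully grown arrays, against 462 and 462 on the pod arrays. The actin 3' to 5' ratio, a sign of RNA integrity, was 2.73 and 4.80 on the fully grown arrays, against 2.05 and 2.09 on the pod arrays. The part of RNA quality and of the control level in the results was not tested.

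Among the called probe sets, 343 were at least 16-fold higher and 287 at least 16-fold lower, and 147 were at least 64-fold higher against 32 lower. The brightest soybean probe set stood at 22167 and 23725 on the fully grown arrays, against 4528 and 4559.8 on the pod arrays. With 16 added to every signal, the scale therefore leaves less room for large falls than for large rises, and these counts are not read as a difference between the directions. The 100 brightest probe sets held 14.8% and 14.5% of the summed soybean signal in fully grown beans, against 5.64% and 5.67% in elongating pods. The signal of filled seed was more concentrated in its 100 brightest probe sets. Further, 3863 probe sets were above background on both pod arrays and on no fully grown array, against 503 the other way round. The scaled background percentile was higher on the fully grown arrays, at 16.005 and 18.7 against 5.80 and 5.98 on the pod arrays, so an equal scaled signal could count as above background in pods and not in fully grown beans. Fully grown replicates correlated at r = 0.969 over tested probe sets (not independent of each other), and pod replicates at 0.991.

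The labelled tissues were checked against their markers. Embryo storage markers (glycinins, beta-conglycinin, LOX1.1, P34, KTI3 and SBP2) were all called higher in fully grown beans. SBP2, a sucrose-binding protein of the filling cotyledon, stood at 10961 and 13099 in fully grown beans, against 27.5 and 23.3 in elongating pods. It was 290.4-fold higher (log2 change 8.18 ± 0.26 SE, limma, adjusted p = 4.69e-08), with no overlap. For green tissue, VSPA, VLXB and VLXC were far higher in pods, but CAB3, a chlorophyll-binding protein of the light-harvesting antenna, was bright in both, at 2782 and 3473 in fully grown beans, against 4528 and 4559.8 in elongating pods. Seed coat markers were mixed: SCB1, a seed coat protein, had 434 and 807 in fully grown beans and 844 and 618 in pods, overlapping (log2 change -0.28, adjusted p = 0.381 by limma), while HPS, a hydrophobic protein found on the seed surface, had 7294 and 7008 in fully grown beans and 125 and 147 in pods and was 47.3-fold higher. The seed coat markers ANR1 and DFR1 also went opposite ways, with log2 changes of -2.94 and 2.48 by the median scaling. The flower regulators AP1A and AG1 were above background on both pod arrays, and on 1 fully grown array (AP1A) or none (AG1). A further flower regulator, SEP1, did not differ by the test (log2 change -0.034, adjusted p = 0.805 by limma). The part of seed coat in the results was not tested.

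Storage globulins rose. All 8 measured members were called higher, with a median log2 change of 9.77 against 0.18 over the 953 genes with a symbol, of which 396 (41.6%) rose and 324 (34%) fell (75.6% called). All 8 were also called higher under the other 3 scalings, as were 103 (10.8%) of the genes with a symbol. The arrays of the groups did not overlap for any of the 8, and for 87.4% of the genes with a symbol. GY1, a glycinin subunit, gave 15907 and 17908 in fully grown beans, against 0.125 and 0.273 in elongating pods, and was at least 2868-fold higher (log2 change 10.03 ± 1.02 SE, limma, adjusted p = 3.24e-05). GY5, another glycinin, gave 16797 and 18466 in fully grown beans, against 2.18 and 0.582 in elongating pods, and was at least 2992-fold higher. Neither had a pod array above background, and no array of one group approached the other group. CG-BETA-1, the beta subunit of beta-conglycinin, gave 16115 and 16567 in fully grown beans, against 0.424 and 2.41 in elongating pods, and was at least 2776-fold higher (log2 change 9.88 ± 0.17 SE, limma, adjusted p = 2.90e-09). The basic globulin BG7S-1 gave 16421 and 13642 in fully grown beans, against 0.267 and 0.905 in elongating pods, and was at least 2543-fold higher. GY7, at low signal, gave 42.7 and 54.1 in fully grown beans, against 0.757 and 2.27 in elongating pods, and was at least 8.17-fold higher. GY2 and GY3 were at least 2732-fold higher and at least 2103-fold higher. GY7 lies next to GY3 in the RefSeq gene order, and their log2 changes were 1.87 and 9.27.

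**Figure D1:**
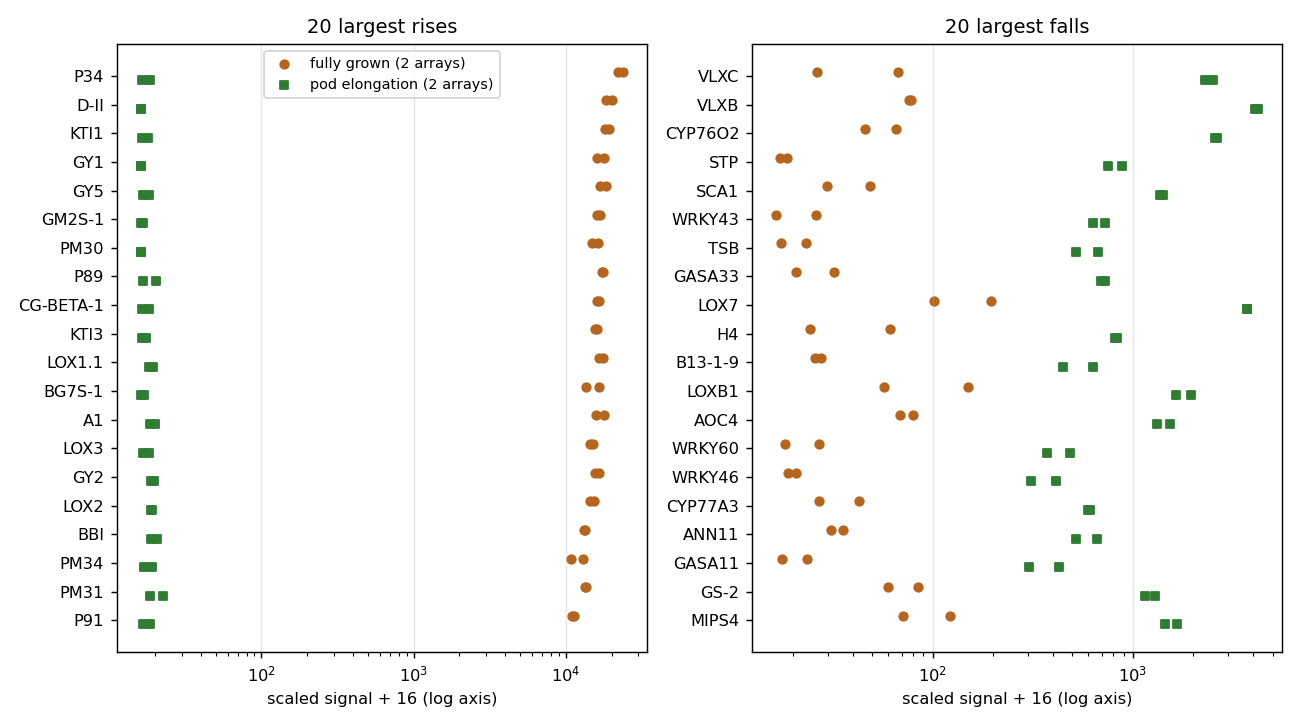
Scaled signal plus 16 (log axis) of the 20 largest rises (left panel) and 20 largest falls (right panel) among named genes, each point 1 array, with fully grown beans as brown circles and elongating pods as green squares. On both pod arrays 19 of the 20 rises are not above background, so their order is no rank of the size of the change. In the rises the pod arrays lie together at the low end and the fully grown arrays together at the high end; in the falls the fully grown arrays spread more.

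Most other seed proteins rose as well. Of 12 measured protease inhibitors and other seed proteins, 8 rose (66.7%), 1 fell (8.33%) and 3 did not pass the test. Over all genes with a symbol, 41.6% rose and 34% fell. The 8 rises held under all 4 scalings, as did those of 103 (10.8%) of all 953 genes with a symbol. P34, a cysteine-protease-like seed protein and allergen, gave 22167 and 23725 in fully grown beans, against 2.58 and 0.465 in elongating pods, and was at least 3896-fold higher (log2 change 10.36 ± 0.91 SE, limma, adjusted p = 1.35e-05). D-II, a Bowman-Birk inhibitor of trypsin-like proteases, gave 18364 and 20105 in fully grown beans, against 0.172 and 0.171 in elongating pods, and was at least 3265-fold higher. KTI1, a Kunitz trypsin inhibitor, gave 19080.4 and 18019.6 in fully grown beans, against 0.399 and 2.11 in elongating pods, and was at least 3151-fold higher. These inhibitors were not above background on any pod array. KTI3, the Kunitz inhibitor of the seed, was at least 2689.8-fold higher, BBI, the classical Bowman-Birk inhibitor, at least 2253-fold higher, and GM2S-1, a 2S albumin, at least 2785-fold higher. KTI-3 and KTI-2, of the Kunitz type by their symbols, and SSTP-2 did not pass on their brightest probe sets. A dimmer probe set of KTI-3, of a kind that can match several transcripts, was called lower (log2 change -0.64, adjusted p = 0.0117 by limma). KTI-3 gave 1506 and 1551 in fully grown beans, against 2052 and 1944 in elongating pods (log2 change -0.38, adjusted p = 0.0753 by limma), and KTI-2 gave 2082 and 2509.5 in fully grown beans, against 2323 and 2244 in elongating pods (log2 change 0.0015, adjusted p = 0.997 by limma). Under each of the other 3 scalings both were called lower, KTI-3 with log2 changes of -1.20, -1.86 and -2.96 and KTI-2 with -1.02, -1.48 and -2.59 (quantile, as deposited and hybridization controls). SSTP-2 gave 13.6 and 13.9 in fully grown beans, against 14.7 and 14.4 in elongating pods, below background on the fully grown arrays (log2 change -0.039, adjusted p = 0.824 by limma). BBI-1, another Bowman-Birk inhibitor, was the member that fell, with 46.8 and 40.1 in fully grown beans and 77.8 and 78.9 in pods (log2 change -0.67, adjusted p = 0.00397 by limma). A1, annotated as albumin-1, gave 15702 and 17850.1 in fully grown beans, against 2.68 and 3.92 in elongating pods, and was at least 2845-fold higher. P89 and P91, for which no role is given here, were at least 2956-fold higher and at least 1895-fold higher.

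Seed maturation transcripts also rose. Of 26 measured late embryogenesis abundant (LEA) and seed maturation genes, 25 rose (96.2%) and none fell, with a median log2 change of 6.53. Over all genes with a symbol, 41.6% rose and 34% fell. LEA proteins are hydrophilic proteins that accumulate as a seed nears drying. With scaling to hybridization controls 22 stayed higher and 3 were lower. Under all 4 scalings 22 were higher, against 103 (10.8%) of all 953 genes with a symbol. PM30 gave 14928 and 16322 in fully grown beans, against 0.196 and 0.206 in elongating pods, and was at least 2652-fold higher (log2 change 9.91 ± 0.32 SE, limma, adjusted p = 5.45e-08). PM31 gave 13525 and 13353 in fully grown beans, against 2.42 and 6.47 in elongating pods, with 1 pod array above background, and was 661-fold higher on the scale with the added 16. Both were called higher under all 4 scalings. PM34 gave 10789 and 12984 in fully grown beans, against 0.859 and 3.01 in elongating pods, and was at least 2011-fold higher. PM9 gave 9929 and 10999.6 in fully grown beans, against 6.55 and 8.67 in elongating pods, above background on both pod arrays, and was 444-fold higher. LEA5 and PM12 were at least 1175-fold higher and 457-fold higher. The fully grown and pod arrays did not overlap for any of these 6, and for 87.4% of all genes with a symbol. For PM30, PM31 and PM34, of the 20 largest rises, this was a condition of being chosen.

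Oil enzymes changed in both directions, with 12 of 18 measured members higher (66.7%) and 6 lower (33.3%), and a median log2 change of 1.30. Over all genes with a symbol, 41.6% rose and 34% fell. Of the oil rises 3 held under all 4 scalings, against 103 (10.8%) of all 953 genes with a symbol. Those 3 were FAD2-1A, SACPD-C and WRI1B. FAD2-1A, the seed oleate desaturase that makes linoleic acid, gave 10194 and 11200.1 in fully grown beans, against 2.44 and 0.576 in elongating pods, and was at least 1816-fold higher (log2 change 9.26 ± 0.22 SE, limma, adjusted p = 9.80e-09). SACPD-C, a stearoyl-carrier-protein desaturase of the seed, gave 12149.5 and 13755 in fully grown beans, against 346 and 786 in elongating pods, and was 24.04-fold higher (log2 change 4.59 ± 0.32 SE, limma, adjusted p = 3.31e-06). WRI1B, a regulator of fatty acid synthesis, gave 108 and 151 in fully grown beans, against 3.87 and 2.51 in elongating pods, and was at least 21.7-fold higher. In contrast, the plastid desaturase FAD7-2, which makes linolenic acid for chloroplast membranes, gave 20.04 and 50.2 in fully grown beans, against 425 and 575 in elongating pods, and was 10.4-fold lower (log2 change -3.39 ± 0.31 SE, limma, adjusted p = 1.76e-05). Of the other rises, PDH and FAD3C, a linoleate desaturase, were 4.28-fold higher and 3.81-fold higher. Neither was called higher with the hybridization controls. The other oleate desaturases of the list, FAD2-2 and FAD2-3, named after their values were seen, fell while the seed form rose. FAD2-2 gave 629.8 and 964 in fully grown beans, against 1644 and 1584 in elongating pods, and was 2.05-fold lower, and FAD2-3 was 3.33-fold lower.

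Lipoxygenases oxidise polyunsaturated fatty acids, and the family split into forms high in filled seed and forms high in pods. Of 9 measured members, the 3 seed forms LOX1.1, LOX2 and LOX3 rose (33.3%), 5 fell (55.6%) and LOX10 did not pass. Over all genes with a symbol, 41.6% rose and 34% fell. LOX1.1 gave 16506 and 17466 in fully grown beans, against 3.40 and 2.22 in elongating pods, and was at least 2885-fold higher (log2 change 9.82 ± 0.32 SE, limma, adjusted p = 5.81e-08). LOX2 gave 14372 and 15236 in fully grown beans, against 2.83 and 3.21 in elongating pods, and was at least 2514-fold higher. LOX3 gave 14382 and 15039 in fully grown beans, against 2.17 and 0.651 in elongating pods, and was at least 2499-fold higher. No seed form was above background on either pod array. The vegetative form VLXC gave 51.4 and 10.5 in fully grown beans, against 2494 and 2272 in elongating pods, with 1 fully grown array above background, and was 56.7-fold lower (log2 change -5.83 ± 0.37 SE, limma, adjusted p = 2.05e-06). VLXB gave 61.9 and 59.9 in fully grown beans, against 4228 and 4075 in elongating pods, and was 54.2-fold lower. LOX7 gave 85.2 and 180.3 in fully grown beans, against 3698 and 3691 in elongating pods, and was 26.3-fold lower. The vegetative forms thus stood at a small share of their pod signal in filled seeds. LOXB1 gave 135 and 41.2 in fully grown beans, against 1944 and 1629 in elongating pods and was 19.3-fold lower, and LOX9 was 8.22-fold lower. Among the 20 largest falls the fully grown arrays of LOXB1 lay furthest apart on the log2 scale. That neither reached a pod array was a condition for choosing these 20. LOX10 gave 8.15 and 10.5 in fully grown beans, against 11.7 and 9.12 in elongating pods, below background on both fully grown arrays (log2 change -0.060, adjusted p = 0.736 by limma). The identifiers of VLXB and LOXB1 share a main number, so their falls may not be separate. The 4 probe sets of LOX7 gave changes of -7.05 to -4.72 and those of LOXB1 -4.27 to -0.23 (log2). In RefSeq gene order, LOX2, LOX1.1, LOXB1 and LOX7 follow one another with no gene between neighbours, and their log2 changes were 9.61, 9.82, -4.27 and -4.72. Likewise LOX3 and VLXB lie 1 gene apart and changed in opposite directions.

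**Figure D2:**
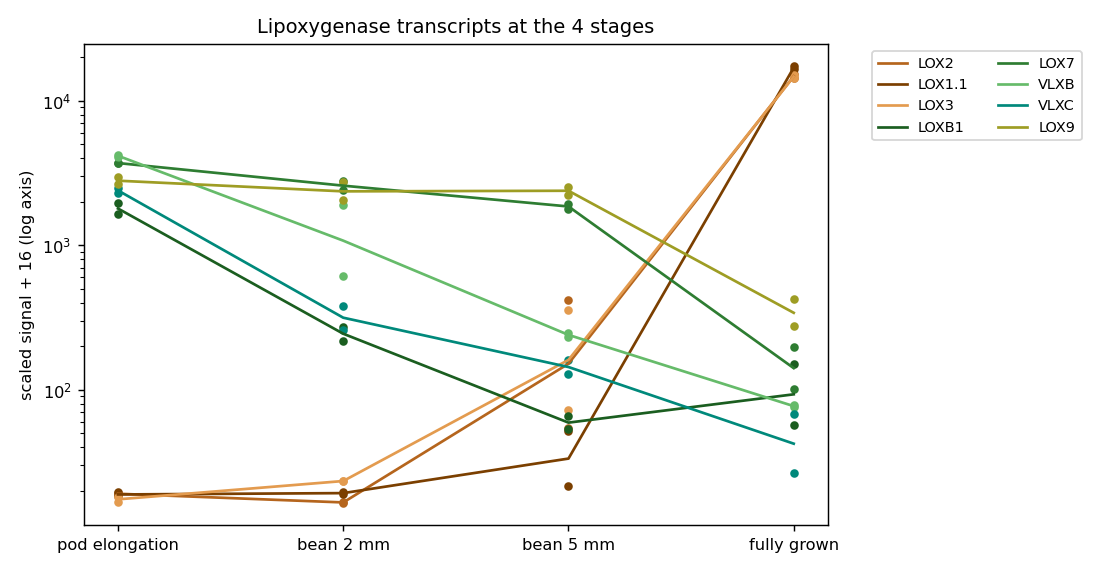
Scaled signal plus 16 (log axis) of 8 lipoxygenase transcripts at the 4 stages, in developmental order, with 1 point per array and lines through the stage means. The seed forms LOX1.1, LOX2 and LOX3 (brown) are near the floor in elongating pods and bean 2 mm and highest in fully grown beans, while LOX7, VLXB, VLXC, LOX9 and LOXB1 (green) are highest in elongating pods.

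The vegetative storage protein VSPA, a pod and leaf protein with acid phosphatase homology, was the only member of its list measured. It gave 545 and 187 in fully grown beans, against 3805 and 3919.5 in elongating pods, and was 11.5-fold lower (log2 change -3.52 ± 0.74 SE, limma, adjusted p = 0.00268). Its 7 probe sets gave changes of -5.35 to -0.42 (log2), the dimmest set the smallest. The larger falls among genes outside the lists included STP, for which no role is given here, at 1.25 and 2.71 in fully grown beans, against 734 and 869 in elongating pods (at least 46.1-fold lower). SCA1, likewise without a role here, gave 13.8 and 32.7 in fully grown beans, against 1346 and 1404 in elongating pods (36.5-fold lower). GASA33 and GASA11, gibberellin-regulated cysteine-rich peptides, were at least 40.2-fold lower and at least 19.8-fold lower. TSB and B13-1-9, whose role is not given here, and ANN11, an annexin, were at least 33.3-fold lower, at least 29.7-fold lower and 17.6-fold lower. AOC4, an allene oxide cyclase of jasmonate synthesis, gave 52.8 and 63.8 in fully grown beans, against 1311 and 1515 in elongating pods, and was 19.2-fold lower (log2 change -4.27 ± 0.15 SE, limma, adjusted p = 8.81e-08). Of the 20 largest falls, 8 were not above background on either fully grown array. All 20 kept their direction and their call under all 4 scalings. So did all 324 genes with a symbol that fell, so this does not set the 20 apart.

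Of 7 measured photosynthesis genes, 3 fell (42.9%), 1 rose (14.3%) and 3 did not pass by the median scaling. Over all genes with a symbol, 34% fell and 41.6% rose. The count depends on the scaling. After quantile normalization 5 were lower, with signals as deposited 6 and with the hybridization controls 6. The 3 falls held under all 4 scalings, as did every fall among the genes with a symbol, and the rise did not. RCAALPHA, a Rubisco activase, gave 155 and 324 in fully grown beans, against 721 and 717 in elongating pods, and was 3.05-fold lower. RCA14, another activase, gave 319 and 491 in fully grown beans, against 1037 and 962 in elongating pods, and was 2.46-fold lower. CAB3 was 1.46-fold lower and lost its call without 1 of 3 arrays (the first fully grown or either pod array), and its 5 probe sets ran from -0.82 to 0.82 (log2). Its fall was larger under the other scalings, with log2 changes of -1.98 after quantile normalization, -2.03 as deposited and -3.15 with the hybridization controls. RCA11, RCABETA and PETC, a subunit of the cytochrome complex, did not pass, with log2 changes of -0.27, -0.18 and -0.036 and adjusted p (limma) of 0.205, 0.289 and 0.817. PSAD, a photosystem subunit, rose: its brightest probe set was 4.87-fold higher, but its log2 change was -0.32 with the hybridization controls and its 3 probe sets disagreed, at -0.49 to 2.28 (log2).

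Among sugar genes the largest changes were in SWEET transporters, which carry sugars across membranes. Of 11 measured sugar transport and cleavage genes, 6 rose (54.5%), 2 fell (18.2%) and 3 did not pass. Over all genes with a symbol, 41.6% rose and 34% fell. Of the sugar rises 4 held under all 4 scalings, against 103 (10.8%) of all 953 genes with a symbol. SWEET24 gave 4326 and 4751 in fully grown beans, against 17.2 and 10.5 in elongating pods, and was 154-fold higher (log2 change 7.26 ± 0.13 SE, limma, adjusted p = 3.19e-09). SWEET13 and SWEET17 were 13.7-fold higher and at least 58.9-fold higher. These 3 stood above the pod arrays without overlap, and 87.4% of all genes with a symbol had no overlap in either direction. SWEET31 and SWEET42 were at least 7.999-fold higher and 2.88-fold higher. SWEET42 reversed with the hybridization controls. STP1, a hexose transporter, was 3.73-fold lower, at 64.9 and 46.7 in fully grown beans, against 239.8 and 260.4 in elongating pods. The sucrose carrier SUT1 gave 134 and 97.1 in fully grown beans, against 90.7 and 89.5 in elongating pods (log2 change 0.29, adjusted p = 0.273 by limma), SWEET34 36.3 and 45.4 in fully grown beans, against 37.9 and 46.1 in elongating pods (log2 change -0.030, adjusted p = 0.881 by limma), and SWEET29 12.9 and 32.8 in fully grown beans, against 8.82 and 11.2 in elongating pods (log2 change 0.53, adjusted p = 0.0727 by limma). None of these 3 passed, although the arrays of SUT1 and of SWEET29 did not overlap between the groups.

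The inositol and galactinol genes, which build phytate and raffinose sugars, had no rise that held under every scaling: 4 of 9 measured members rose, 3 fell and 2 did not pass. The shares that rose and fell, 44.4% and 33.3%, lay near those of all genes with a symbol (41.6% and 34%). MIPS4, an inositol-3-phosphate synthase, gave 55.2 and 106 in fully grown beans, against 1653 and 1433 in elongating pods, and was 16.7-fold lower (log2 change -4.06 ± 0.22 SE, limma, adjusted p = 8.54e-07), although its identifier shares a main number with MIPS. MIPS gave 1269.7 and 1285 in fully grown beans, against 1612 and 1419.6 in elongating pods (log2 change -0.24, adjusted p = 0.144 by limma), and its other probe set gave a change of 2.17 (log2). ITPK3, an inositol phosphate kinase, and GOLS, a galactinol synthase, were 6.01-fold lower and 4.02-fold lower. On the other side, IPK1, IPK2 and ITPK4, kinases of the phytate path, were 3.29-fold higher, 3.11-fold higher and 2.46-fold higher by the median scaling, and ITPK1 gave 39.8 and 75.01 in fully grown beans, against 80.1 and 67.3 in elongating pods (log2 change -0.33, adjusted p = 0.228 by limma).

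Phenylpropanoid and flavonoid genes, 32 measured, gave 11 rises (34.4%) and 13 falls (40.6%), with 8 not passing. Over all genes with a symbol, 41.6% rose and 34% fell. Of the rises 4 held under all 4 scalings, against 103 of all 953 genes with a symbol. Isoflavone synthase transcripts rose. IFS1 gave 738 and 798 in fully grown beans, against 6.05 and 7.55 in elongating pods, and was 34.4-fold higher. IFS2 gave 598 and 337 in fully grown beans, against 26.4 and 17.3 in elongating pods, and was 12.4-fold higher. IFR1, an isoflavone reductase, gave 498 and 733 in fully grown beans, against 1.66 and 5.47 in elongating pods, and was at least 103-fold higher, while IFR, its neighbour 1 gene away, gave 12.3 and 8.53 in fully grown beans, against 7.91 and 7.08 in elongating pods (log2 change 0.17, adjusted p = 0.374 by limma). CHS1, chalcone synthase, and 4CL2, an early phenylpropanoid ligase, were at least 9.19-fold lower and 7.74-fold lower. CHS1 was not above background on the fully grown arrays and its 5 probe sets ran from -3.05 to 0.80 (log2). ANR1, anthocyanidin reductase of the tannin branch in seed coats, gave 10.7 and 2.21 in fully grown beans, against 140.2 and 166 in elongating pods, and was at least 8.82-fold lower. DFR1, dihydroflavonol reductase of the same branch, was 5.57-fold higher by the median scaling, with 719.6 and 1099 in fully grown beans and 159 and 136 in pods.

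**Figure D3:**
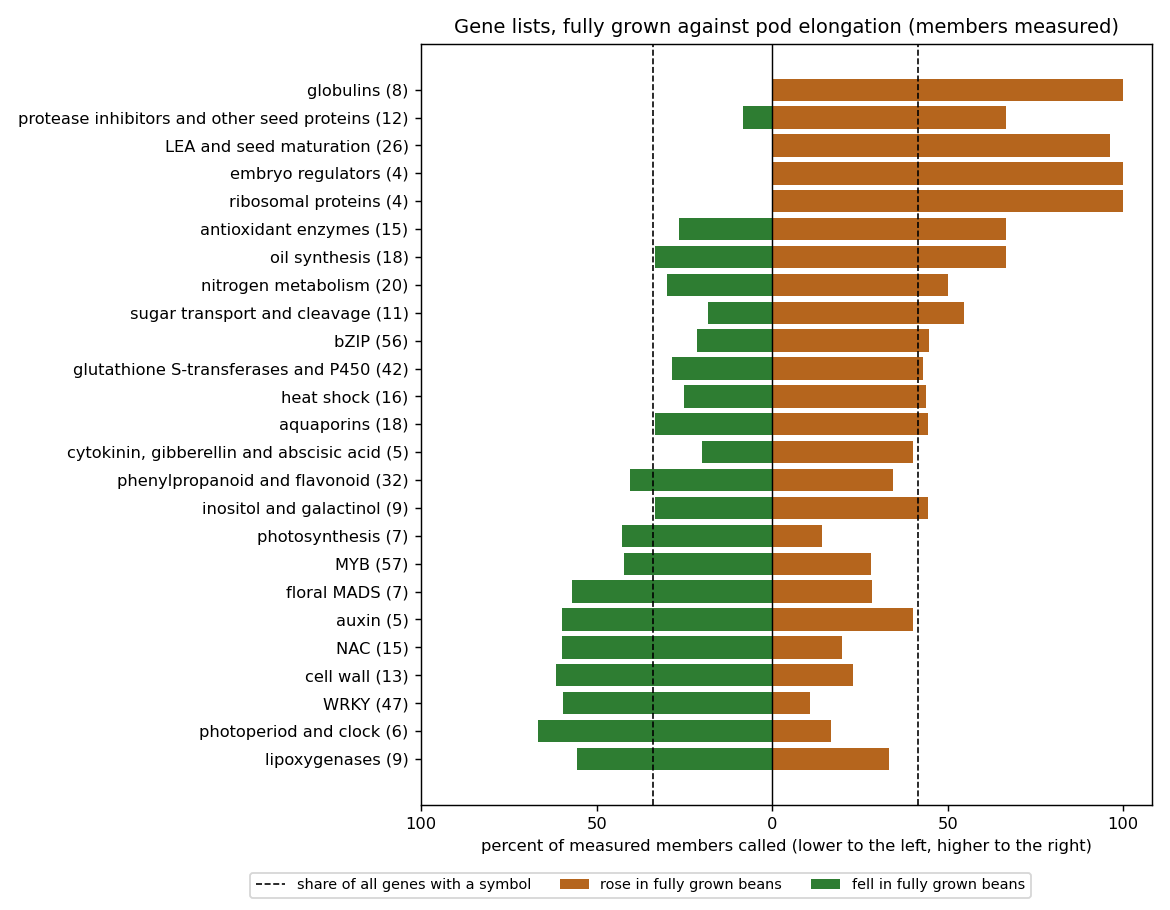
Percent of the measured members of each gene list (number in brackets) that rose (brown, right) or fell (green, left) in fully grown beans relative to elongating pods, for lists of at least 4 members. The dashed lines mark the shares over all genes with a symbol, 41.6% higher and 34% lower; globulins and LEA genes lie far to the right and WRKY genes to the left.

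Of 13 measured cell wall genes, 8 fell (61.5%, against 34% of all genes with a symbol), 3 rose and 2 did not pass, and none of the rises held under every scaling. XTH1, a xyloglucan endotransglucosylase that remodels walls, gave 42.05 and 47.8 in fully grown beans, against 743 and 714 in elongating pods, and was 12.2-fold lower. XET1, of the same enzyme family, gave 3.35 and 4.98 in fully grown beans, against 139.7 and 165 in elongating pods, and was at least 8.76-fold lower. SBPRP, a proline-rich wall protein, was 12.2-fold lower, and PGIP and PGIP4, inhibitors of pectin-cleaving enzymes and next to each other in gene order, were at least 4.02-fold lower and at least 2.85-fold lower. The expansins, which loosen walls and are named here after their values were seen, did not fall by the median scaling. EXP1 was 1.49-fold higher (log2 change 0.57, adjusted p = 0.00689 by limma), and EXP2 and EXP4 did not pass, with log2 changes of 0.20 and 0.15 and adjusted p (limma) of 0.324 and 0.456. All 3 were called lower with signals as deposited and with the hybridization controls. PRP2, another proline-rich protein, rose to 5075 and 3972 in fully grown beans, against 723 and 653 in elongating pods, and was 6.41-fold higher. Of 18 measured aquaporins, water channels, 8 rose (44.4%) and 6 fell (33.3%), near the 41.6% and 34% of all genes with a symbol. No aquaporin rise held under every scaling. PIP1-1 gave 57.9 and 65.1 in fully grown beans, against 918 and 842 in elongating pods, and was 11.6-fold lower (log2 change -3.53 ± 0.19 SE, limma, adjusted p = 8.61e-07). PIP2-4, PIP1-6 and PIP2-13 were 11.5-fold lower, 8.73-fold lower and 4.17-fold lower. PIP2-6 and PIP2-8 rose by the median scaling, 3.49-fold higher and 4.12-fold higher, and reversed with the hybridization controls. The 5 probe sets of PIP2-6 ran from -0.18 to 1.80 (log2).

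Regulators of the embryo rose, 4 of 4 measured (100%, against 41.6% of all genes with a symbol). Of these rises 3 held under all 4 scalings, against 103 (10.8%) of all 953 genes with a symbol. WRI1B, 1 of these 3, is the same gene as that counted among the oil enzymes. MFT, an embryo protein that acts in abscisic acid signalling in Arabidopsis, gave 5734 and 4285 in fully grown beans, against 0.623 and 1.72 in elongating pods, and was at least 842-fold higher (log2 change 8.18 ± 0.26 SE, limma, adjusted p = 5.29e-08). LEC1-A, a master regulator of embryo maturation, gave 189.8 and 207 in fully grown beans, against 0.250 and 2.54 in elongating pods, and was at least 33.7-fold higher. DOF6 gave 30.9 and 25.2 in fully grown beans, against 16.7 and 16.4 in elongating pods, rose by 0.43 on the log2 scale and reversed with the hybridization controls. Floral MADS regulators were mixed. Of 7 measured, 4 fell (57.1%, against 34% of all genes with a symbol) and 2 rose. SEP1, with 114 and 112 in fully grown beans and 115 and 118 in pods, did not pass (log2 change -0.034, adjusted p = 0.805 by limma). AP1A gave 19.7 and 12.8 in fully grown beans, against 205 and 200.5 in elongating pods, and was 6.82-fold lower (log2 change -2.77 ± 0.30 SE, limma, adjusted p = 4.88e-05). AG1 was at least 5.81-fold lower. AGL3L was 4.32-fold lower and NMH7 was at least 1.82-fold lower. The other probe sets of NMH7 did not pass, at 0.41 and -0.34 (log2). MADS28 and AGL1L were 3.04-fold higher and 3.18-fold higher, and both reversed with the hybridization controls. Of the 5 auxin genes 3 fell (60%, against 34% of all genes with a symbol) and 2 rose (40%, near the 41.6% of those). AUX22, an early auxin response gene, was 5.67-fold lower. TIR1C and AFB3B, auxin receptors, were 1.51-fold lower and 1.48-fold lower, while PIN2A, an auxin carrier, and AUX28 were at least 3.65-fold higher and 1.48-fold higher, at low signal. No auxin rise held under all 4 scalings, and 10.8% of all genes with a symbol were higher under all 4. CKX3, a cytokinin oxidase, gave 38.1 and 48.3 in fully grown beans, against 339 and 351 in elongating pods, and was 6.11-fold lower. GA20OX3 and GA2OX6, gibberellin oxidases, were 1.45-fold higher and 1.40-fold higher, and IPT and GA2OX8 did not pass, with log2 changes of -0.033 and -0.27 and adjusted p (limma) of 0.895 and 0.378. The calls of DOF6, NMH7, AFB3B, AUX28, GA20OX3 and GA2OX6 were each lost when 1 or another array was left out, and AUX28, GA20OX3 and GA2OX6 reversed with signals as deposited and with the hybridization controls.

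Transcription factor families moved unequally. Of 47 measured WRKY factors, regulators known from defence and senescence, 28 fell and 5 rose, with a median log2 change of -0.82, and 59.6% fell against 34% of all genes with a symbol. WRKY43 gave 0.507 and 10.1 in fully grown beans, against 619.6 and 711 in elongating pods, and was at least 38.3-fold lower (log2 change -5.03 ± 0.33 SE, limma, adjusted p = 2.38e-06). WRKY60 gave 10.9 and 2.34 in fully grown beans, against 358 and 471 in elongating pods, and was at least 23.7-fold lower. WRKY46 gave 4.82 and 2.93 in fully grown beans, against 293 and 396 in elongating pods, and was at least 19.7-fold lower. These 3 were not above background on either fully grown array. WRKY47, WRKY39 and WRKY56 were 12.01-fold lower, at least 14.9-fold lower and 10.03-fold lower. NAC factors fell likewise, 9 of 15 (60%, against 34% of all genes with a symbol), and 3 rose (20%, against 41.6%). NAC6 gave 8.65 and 29.96 in fully grown beans, against 538 and 546 in elongating pods (16.6-fold lower), and NAC018 was 16.1-fold lower. NAC12 and NAC4 were at least 2.48-fold lower and 2.17-fold lower, and NAC14 and NAC19 3.10-fold higher and 3.41-fold higher. Both reversed with the hybridization controls. No NAC rise held under all 4 scalings, and 10.8% of all genes with a symbol were higher under all 4. MYB factors gave 16 rises (28.1%) and 24 falls (42.1%) of 57, against 41.6% and 34% of all genes with a symbol. Of the MYB rises 4 held under all 4 scalings, against 103 of all 953 genes with a symbol. Those of MYB172, MYB68 and MYB127 were among the 4, but not that of MYB70. MYB172 and MYB68 were 9.86-fold higher and 9.56-fold higher, MYB70 and MYB127 6.72-fold higher and at least 17.9-fold higher, and MYB124 and MYB50 at least 10.5-fold lower and 5.36-fold lower. Of 56 bZIP factors 25 rose and 12 fell, and the 44.6% that rose lie near the 41.6% of all genes with a symbol; 2 rises, BZIP132 and BZIP70, held under all 4 scalings. BZIP132 gave 1851 and 2239 in fully grown beans, against 10.7 and 9.73 in elongating pods, and was 78.3-fold higher (log2 change 6.29 ± 0.20 SE, limma, adjusted p = 5.45e-08), and BZIP70 was 9.72-fold higher. BZIP126, BZIP124, BZIP85 and BZIP62 were 5.26-fold higher, 3.78-fold higher, 3.44-fold higher and 3.40-fold higher.

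**Figure D4:**
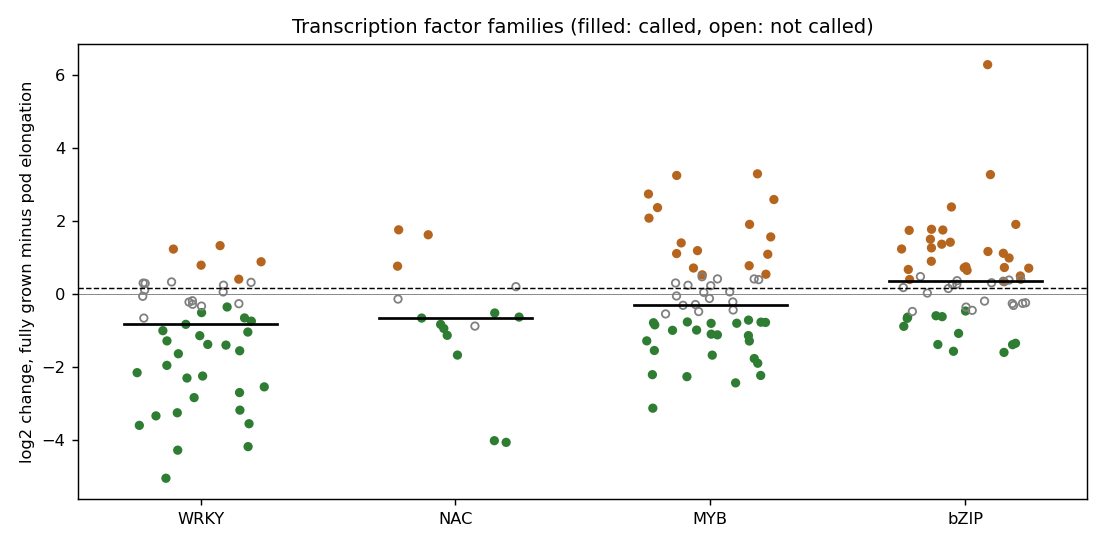
Log2 change, fully grown beans minus elongating pods, of every measured WRKY, NAC, MYB and bZIP factor (1 point each; brown rose, green fell, open grey did not pass the test), with the family median as a bar and the median of all genes with a symbol (0.18) dashed. The WRKY and NAC medians lie below 0 and the bZIP median at 0.37.

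Nitrogen and stress enzymes gave rises that held and rises that did not. Of 20 measured nitrogen metabolism genes 10 rose (50%, against 41.6% of all genes with a symbol) and 6 fell (30%, against 34%). Of these rises 4 held under all 4 scalings. GS1-GAMMA, a cytosolic glutamine synthetase, gave 629.9 and 608 in fully grown beans, against 21.99 and 17.3 in elongating pods, and was 17.8-fold higher (log2 change 4.16 ± 0.16 SE, limma, adjusted p = 1.17e-07). PPCK2, a kinase of phosphoenolpyruvate carboxylase, and NOD33 were 18.98-fold higher and 12.8-fold higher. N-26, a membrane channel of nodules, was at least 35.4-fold higher. GS1GAMMA2 was 3.09-fold higher and reversed with the hybridization controls, and NIR, nitrite reductase of green tissue, was 3.18-fold lower. GS-2, a glutamine synthetase by its symbol and outside the list, gave 43.8 and 68.3 in fully grown beans, against 1271 and 1136 in elongating pods, and was 17.1-fold lower (log2 change -4.10 ± 0.17 SE, limma, adjusted p = 1.90e-07). Of 15 antioxidant enzymes 10 rose (66.7%, against 41.6% of all genes with a symbol), 4 fell (26.7%, against 34%) and 1 did not pass. Of these rises 3 held under all 4 scalings, against 103 (10.8%) of all 953 genes with a symbol. SODB, an iron superoxide dismutase, gave 3989.8 and 4262 in fully grown beans, against 51.4 and 68.4 in elongating pods, and was 54.9-fold higher (log2 change 5.78 ± 0.20 SE, limma, adjusted p = 7.73e-08). SODB2 was 22.5-fold higher, PRX3 31.7-fold higher, DHAR3, dehydroascorbate reductase, 4.91-fold higher, and APX2, ascorbate peroxidase, 6.91-fold lower. PRX2B was 4.42-fold higher. DHAR3 and PRX2B reversed with the hybridization controls. The second probe set of PRX3 gave -0.058 (log2), so its rise is that of 1 probe set.

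Of 16 heat shock genes 7 rose (43.8%, near the 41.6% of all genes with a symbol) and 4 fell (25%, against 34%). HSP90A1, a chaperone, gave 28.8 and 31.7 in fully grown beans, against 852 and 625 in elongating pods, and was 16.1-fold lower (log2 change -4.01 ± 0.17 SE, limma, adjusted p = 2.09e-07). HSP23.9, HSP17.5-E and HSP90-1 were 2.68-fold lower, 2.58-fold lower and 2.57-fold lower, and HSP22.3 and the factor HSF-15 at least 7.03-fold higher and 1.92-fold higher. The second probe set of HSP17.5-E did not pass and gave 0.19 (log2), and the 7 of HSP90-1 ran from -1.53 to 0.69. No heat shock rise held under all 4 scalings. Of 42 glutathione S-transferases and cytochrome P450 enzymes, 18 rose (42.9%) and 12 fell (28.6%), against 41.6% and 34% of all genes with a symbol. Of the rises 2 held under all 4 scalings, against 103 of all 953 genes with a symbol. CYP76O2 gave 29.7 and 49.9 in fully grown beans, against 2572 and 2620.2 in elongating pods, and was 47.6-fold lower (log2 change -5.57 ± 1.01 SE, limma, adjusted p = 0.00113). CYP77A3, CYP82A2, GSTU30 and GSTIR were 17.8-fold lower, at least 9.64-fold lower, 7.56-fold lower and 6.61-fold lower, and GSTU41 was 6.97-fold higher. GSTU30, GSTU28 and GSTU27 follow one another in gene order, and the last 2, named after their values were seen, were 2.29-fold higher and 2.28-fold higher, and reversed with the hybridization controls. All 4 ribosomal protein genes (RPL2, RPS13, RPL37 and RPS6) were 2.24-fold higher, 2.97-fold higher, 3.12-fold higher and 3.22-fold higher by the median scaling, but 1 stayed higher after quantile normalization and all 4 were lower with the hybridization controls. Of 6 photoperiod and clock genes 4 fell (66.7%, against 34% of all genes with a symbol) and 1 rose (16.7%, against 41.6%). COL10 and COL2A, CONSTANS-like factors, were 7.59-fold lower and at least 5.57-fold lower, LHY, a clock factor, 2.65-fold lower, and PHYA, a red-light receptor, 1.36-fold lower. CRY2B, a blue-light receptor, was 1.49-fold higher but lower with signals as deposited and with the hybridization controls. LCL3 gave 16.3 and 16.3 in fully grown beans, against 15.1 and 11.2 in elongating pods (log2 change 0.15, adjusted p = 0.419 by limma). Of the 3 cell cycle and histone genes, CDC48 was 2.15-fold higher and reversed with the hybridization controls, H1 gave 2.25 and 27.9 in fully grown beans, against 30.9 and 28.3 in elongating pods (log2 change -0.69, adjusted p = 0.113 by limma), and H4 was 21.3-fold lower, on a probe set whose identifier shares its main number with VSPA.

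The stages between were set beside the change as shares of it. The elongation samples were pods, those of bean 2 mm seeds with pods and those of bean 5 mm seeds alone, so time and the loss of the pod from the sample cannot be told apart. In stage order, the 20 largest rises had reached a median of 1.52% of their log2 change in bean 2 mm and 30.5% in bean 5 mm, and the 20 largest falls 71.5% and 84.7%. Over probe sets with a change of at least 2-fold, the medians were 29.0% and 31.5% for the rises and 52.1% and 61.0% for the falls. Among the rises, GY5, BG7S-1 and CG-BETA-1 had 0.347%, 1.87% and 3.93% of their change by bean 5 mm, while KTI3, A1 and P89 had 74.2%, 73.5% and 68.4%. Among the falls, GASA33 and LOX7 had 18.2% and 21.2% by then. In 5 mm beans LOX7 gave 1908 and 1775. MIPS4 had 7.56% by bean 2 mm and 75.7% by bean 5 mm.

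The 2 arrays of bean 5 mm differed in these genes. For 18 of the 20 largest rises the second array was the higher one, and for 13 of them by at least 2-fold, with a median gap of 1.37 (log2). Their median share of the change was 16.3% on the first array and 45.7% on the second. GY1 gave 13.7 and 550.1 in 5 mm beans, and P34 gave 20.4 and 491. With 16 added, which hides gaps between signals near 0, replicates of fully grown beans and of elongating pods were not 2-fold apart for any of these 20 genes. The shares by bean 5 mm given above are means over both arrays, and the fit's spread for these genes, and so their p, includes this gap. Likewise, in bean 2 mm the second array was the higher one for 19 of the 20 largest falls, with a median gap of 0.56 (log2).

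**Figure D5:**
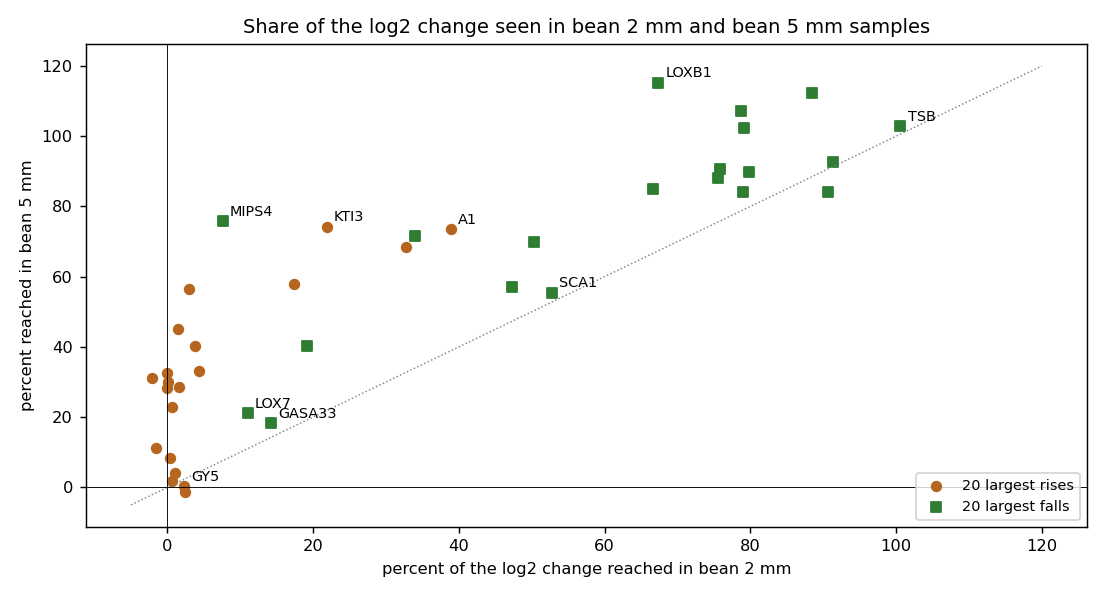
Percent of the log2 change between elongating pods and fully grown beans that was reached in bean 2 mm (x axis) and in bean 5 mm (y axis), mean of both arrays, for the 20 largest rises (brown circles) and the 20 largest falls (green squares); the dotted line marks equal shares. Most rises lie at the left edge and most falls to the right.

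Probe sets of a kind that can match several transcripts stood for 60 of the genes named here, among them GY2, CG-BETA-1, KTI3, LOX3, P34, P89, CYP76O2, LOX7, LOXB1, VLXB, ANN11, H4, GASA33 and MIPS4 of the largest changes. Their values may therefore not be those of 1 gene alone. Of 1050 genes with several called probe sets, 964 (91.8%) had all of them changed in the same direction.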

How the data were processed

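Signals of 61170 probe sets on 8 Affymetrix soybean arrays (2 at each of 4 stages) were taken from 1 deposited table, whose values are linear intensities as the authors deposited them. Per the submitters' processing notes, the fully grown samples were among 4 made with MAS5. The program behind the pod signals was not given in the labels, so program and group cannot be told apart. Probe sets of soybean (37641) were tested if above the 95th percentile of the 15864 Phytophthora sojae and 7530 Heterodera glycines probe sets on at least 2 of 8 arrays (33625, 89.3%). Among the Phytophthora sets, 44 whose names begin Psojae were left out with the others, and so were 135 controls.

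Each array was scaled to an equal median, log2(scaled signal + 16) was fitted with stage means over all 8 arrays in limma 3.58.1 (R 4.3.3, lmFit and eBayes with trend), and p-values were adjusted by Benjamini-Hochberg at 0.05. On simulated data of 33625 probe sets, 200 changes were planted, all in probe sets with a mean signal above the median. Of these, 88% of the 2-fold and 100% of the 4-fold changes were recovered, with 18 false calls. The simulation had normal noise and no shift in scale or background. It therefore says nothing on dim transcripts or on the dependence on scaling. The number of arrays limits the precision.

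Names came from the platform annotation, updated through RefSeq (Glycine_max_v4.0, names and gene order only): 8677 of 9047 listed probe sets have 1 gene and 370 several, 8652 of the single ones matched RefSeq, and 28964 soybean probe sets are unnamed here. The brightest probe set stood for a gene. Genes were named from those called with a symbol and no overlap (the 20 that rose most and the 20 that fell most), along with up to 6 called members of each list with the largest change, and uncalled members of lists of up to 12. Other genes are named as tissue markers, as list members or as gene neighbours. Lists were found by symbol alone. Members and lists were chosen with earlier results of these data known. Equal replicate numbers were not taken as pairs: their deviations from the group means correlated at 0.0873, and no label says that a number marks a shared batch. Alternatives were other scalings, added constants, filters, fits and left-out arrays.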

Additional observations from a re-analysis of the deposited data

Results flagged for a closer look

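Some control probe sets of soybean genes on the array, outside the comparison, were far brighter in fully grown beans, while others, such as the middle and 3' end of actin (log2 differences 0.11 and 0.33), were not. Those for the sucrose-binding protein averaged 5153.7 (5' end), 14177.7 (middle) and 18535.5 (3' end) in scaled signal in fully grown beans. In elongating pods they stood at 5.19 and 1.85, 13.9 and 9.75, and 45.8 and 45.0. The 3' end of a cytochrome P450 control averaged 1477.3 in fully grown beans, against 40.0 and 29.8 in elongating pods. The gene SBP2, a sucrose-binding protein, showed the same direction on its own probe set.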

How the results depend on the processing

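The counts of called probe sets stayed within 1.5 times of 21042 under every alternative run, but their split did not. Higher calls numbered 2247 with signals as deposited and 893 with arrays set to their hybridization controls, against 12976, and lower calls 21832 and 29832, against 8066. Calls of at least 2-fold (10499) moved to 24268 with the hybridization controls and to 6138 with 64 added in place of 16. Leaving out 1 array of a group gave 16950 to 22710 calls, 10462 to 14036 higher, 6441 to 8674 lower, 10422 to 11276 of at least 2-fold, and 3641 to 4463 of 5814 genes (4263). With the replicate number as a block, though the numbers show no pairing, 20811 probe sets were called, 12828 higher and 7983 lower, and GA20OX3 was the named gene that lost its call. A fit of only the 4 compared arrays gave 18389 calls, 11391 higher and 6998 lower.

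Of 193 genes named in the text, 169 were called, and 45 changed direction under some alternative. With the hybridization controls, the log2 changes of those that reversed were KTI-2 -2.59, TUBB2 -2.38, EXP4 -2.30, TUBB3 -2.27, GA2OX6 -1.99, EXP2 -1.94, SUT1 -1.82, CRY2B -1.58, CDC48 -1.45, RPL2 -1.44, EXP1 -1.26, GSTU28 -1.22, HSF-15 -1.09, RPS13 -1.04, RPL37 -0.96, RPS6 -0.93, GS1GAMMA2 -0.93, NAC14 -0.91, LCL3 -0.90, AGL1L -0.90, DOF6 -0.89, PIP2-6 -0.80, ITPK4 -0.77, SWEET42 -0.75, AUX28 -0.69, BZIP62 -0.66, BZIP124 -0.61, MADS28 -0.61, IFR -0.60, SWEET29 -0.59, FAD3C -0.56, GA20OX3 -0.55, PIP2-8 -0.54, NAC19 -0.47, PRX2B -0.47, IPK2 -0.39, PSAD -0.32, PDH -0.32, BZIP85 -0.30, IPK1 -0.28, DHAR3 -0.21, GSTU27 -0.19, BZIP126 -0.036 and DFR1 -0.024. As deposited, they were KTI-2 -1.48, TUBB2 -1.28, EXP4 -1.26, TUBB3 -1.19, EXP2 -1.04, SUT1 -0.94, GA2OX6 -0.94, CRY2B -0.68, EXP1 -0.51, CDC48 -0.36, DOF6 -0.36, RPL2 -0.33, HSF-15 -0.26, GSTU28 -0.20, AUX28 -0.19 and GA20OX3 -0.13. After quantile normalization they were KTI-2 -1.02, TUBB2 -0.52, RPS13 -0.19 and RPL2 -0.069, and when a gene's probe sets were averaged the value of MIPS was 0.97. Without the first fully grown array, AFB3B, CAB3, DOF6, GA2OX6 and NMH7 lost their call, without the second GA20OX3, without the first pod array AFB3B, AUX28, CAB3, CRY2B, DOF6, GA2OX6 and NMH7, and without the second pod array AFB3B, CAB3, DOF6, EXP1, GA20OX3, GSTU28, NMH7 and PHYA. A floor at the highest scaled background in place of the added 16, chosen after seeing the data, gave 18673 calls. The cause of these shifts was not tested. Dim transcripts in fully grown beans, whose scaled background was 16.005 and 18.7, were least measurable.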

Other observations

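Some transcripts outside the lists, chosen after their values were seen, were also far higher in filled seeds. VPE, a vacuolar processing enzyme by its symbol, a protease that cleaves storage proproteins, gave 2843 and 2884 in fully grown beans, against 8.998 and 9.60 in elongating pods, and was 114-fold higher (log2 change 6.83 ± 0.22 SE, limma, adjusted p = 5.38e-08). CP3, for which no role is given here, gave 8608 and 9700.2 in fully grown beans, against 13.9 and 13.5 in elongating pods, and was 308-fold higher. GASA12, of the gibberellin-regulated peptide family in which GASA33 and GASA11 fell, gave 7519 and 7145 in fully grown beans, against 4.48 and 2.21 in elongating pods, and was at least 1245-fold higher (log2 change 8.57 ± 0.21 SE, limma, adjusted p = 1.24e-08). PGMPM19, likewise without a role here, was 627-fold higher.

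The beta-tubulins TUBB, TUBB2 and TUBB3, parts of the cytoskeleton, did not pass by the median scaling. TUBB gave 1000.4 and 967 in fully grown beans, against 1112 and 1038 in elongating pods (log2 change -0.12, adjusted p = 0.323 by limma), and TUBB2 gave 1329 and 1583 in fully grown beans, against 1215 and 1316 in elongating pods (log2 change 0.20, adjusted p = 0.194 by limma). With scaling to the hybridization controls the log2 changes of TUBB, TUBB2 and TUBB3 were -2.68, -2.38 and -2.27.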
